A study of Mus musculus with 38 samples.

Results

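Cd22, Ms4a1, Cd79a and Cd79b, 4 genes of the surface and the antigen receptor of mature B cells, were followed in the spleens of mice given cyclophosphamide. The 4 genes were chosen with earlier results of these data known. Their probes were taken by symbol: every array probe whose gene is one of the 4 was taken, and each gene had 1 probe. A test needed values from 3 or more mice in each group, which 3 of the 4 genes met, as did 5925 of the 9616 genes on the array. Cd22 (Entrez gene 12483) and Ms4a1 (12482) were measured in all 19 mice, Cd79a (12518) in 13 and Cd79b (15985) in 4, so that Cd79b did not enter any test.

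Spleen cells came from DBA/2 mice, an inbred strain, in 4 groups: 5 untreated mice, and 4, 5 and 5 mice that had received cyclophosphamide at 83 mg/kg 1, 2 and 5 days earlier. Cyclophosphamide, a prodrug whose products crosslink DNA, kills cycling cells most readily and is also used to deplete lymphocytes. No group received the vehicle alone per the labels, and the labels give neither age nor sex. RNA of each spleen was labelled with Cy5 and hybridised against 1 common reference, a pool of bone marrow cells labelled with Cy3, on 2 technical arrays per mouse, 38 in all. Each value below is the log2 ratio of spleen over marrow pool, averaged over the arrays of a mouse, so that 0 is the marrow level and 1 is a doubling. The reference is labelled as untreated marrow, although its treatment field names the drug. It is shared by all arrays and cancels in every difference between groups, but not in the levels themselves.

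B cells bind antigen through a membrane immunoglobulin that cannot signal by itself. CD79A and CD79B, a heterodimer bound to it, carry the tyrosine motifs that recruit the kinase SYK and start the signal. CD22 is a lectin that binds sialic acid and dampens that signal by recruiting the phosphatase SHP-1, and CD20, the product of Ms4a1, is a membrane protein of B cells from the precursor stage until they become plasma cells. The spleen holds mostly mature B cells in its follicles and marginal zone, while marrow also makes their precursors, which already carry CD79A and CD79B.

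Promoter sequence is shown for Cd22, the member with the largest change below, and for Cd79a, a measured member with no called change. The 250 bases before the annotated start were taken from RefSeq (GRCm38.p6), at chr7:30879029-30879278 on the minus strand for Cd22 and chr7:24897247-24897496 on the plus strand for Cd79a, and are printed 5′ to 3′ in the direction of the gene. Capitals mark the match to the EBF core (TCCC and GGGA, with any 2 bases between them) in Cd22 and to the ETS core, GGAAGT, in Cd79a.
Cd22: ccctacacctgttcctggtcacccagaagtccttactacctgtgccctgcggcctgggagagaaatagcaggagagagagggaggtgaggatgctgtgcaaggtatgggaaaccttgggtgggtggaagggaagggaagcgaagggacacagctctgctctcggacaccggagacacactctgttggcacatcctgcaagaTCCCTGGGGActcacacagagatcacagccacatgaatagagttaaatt
Cd79a: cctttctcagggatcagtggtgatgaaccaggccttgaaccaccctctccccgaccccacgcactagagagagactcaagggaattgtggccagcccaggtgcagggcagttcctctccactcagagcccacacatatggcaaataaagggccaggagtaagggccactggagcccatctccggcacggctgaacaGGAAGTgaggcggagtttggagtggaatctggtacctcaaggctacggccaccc

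The 3 motifs were searched by exact letters on both strands, and none overlapped another. The EBF core, a motif of early B cell factor, had 1 match in the Cd22 window, 49 bases before the start, and none in the Cd79a window. It is found in 0.779% of 32851 promoter windows of the same length. The ETS core, a motif of factors such as PU.1, had 1 match in the Cd79a window, 54 bases before the start, and none in the Cd22 window. It is found in 19.7% of windows. The octamer ATGCAAAT, bound by OCT factors, had no match in either window and is found in 1.6% of windows. These are matches of letters and not measured binding sites, and an exact search passes over sites whose letters vary, so a window without a match may still hold one. Ms4a1 and Cd79b are not in the promoter table.

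The arrays held 5829 to 10407 values each, of 13443 probes, and 8319 probes (61.9%) passed the filter. Paired arrays of 1 mouse correlated at 0.581 to 0.962, with the lowest values in untreated mice 4 (0.581) and 2 (0.651) and in mouse 5 of day 5 (0.673). The spread of log2 ratios within a mouse was wider on day 2 (SD 0.517 to 0.692) than in untreated mice (0.413 to 0.533) or on day 5 (0.364 to 0.528), and was 0.505 to 0.601 on day 1. Untreated spleens were low in neutrophil and granule genes, whose mean log2 ratio was below 0 in every mouse of every group. Of 8 measured genes in a list of 21 mature B cell markers, 4 had an untreated mean above the marrow level: Cd22, Ms4a1, Cd79a and Pou2af1. The others were Fcer2a (-0.16), Cd37 (-0.26), Cd72 (-0.68) and Blk (-0.03). A value below 0 means less signal than in the marrow pool, which also contains B cells.

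Cd22 was above the marrow level in every mouse of every group and was lowest on day 5. Its log2 ratios were 1.44, 1.28, 1.54, 1.32 and 1.78 in the 5 untreated mice and 1.64, 1.88, 2.08 and 1.67 in the 4 mice of day 1. They were 1.91, 1.38, 2.28, 2.12 and 1.84 on day 2 and 1.19, 1.06, 0.77, 0.78 and 0.95 on day 5. Every day 5 mouse lay below every mouse of the other 3 groups, while the untreated, day 1 and day 2 values overlapped. How many of all probes show such a gap was counted only for day 5 against day 2, and is given below. The group means were 1.47 ± 0.20 (SD, n = 5), 1.81 ± 0.20 (n = 4), 1.91 ± 0.34 (n = 5) and 0.95 ± 0.18 (n = 5), or 2.77, 3.52, 3.75 and 1.93 times the marrow level.

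From day 2 to day 5 Cd22 fell 1.94-fold (95% interval 1.55 to 2.43), by 0.96 ± 0.16 on the log2 scale (SE, 5 against 5 mice, limma adjusted p = 0.000615). Over all 4 conditions the limma F-test for Cd22 gave an adjusted p of 0.00151. In 19 fits that each left out 1 mouse the difference between day 5 and day 2 stayed between -1.09 and -0.86 and past the threshold of 0.05. When the arrays were set to the same distribution (quantile normalization) the difference was -0.58 (limma adjusted p = 0.224), and when they were set to equal spread it was -0.64 (limma adjusted p = 0.244), so the call was lost under both. The direction was kept in every alternative run. In a bulk sample, fewer B cells, less RNA per B cell and more RNA from other cells cannot be told apart.

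Against untreated mice, Cd22 on day 5 differed by -0.52 ± 0.16 (95% interval -0.85 to -0.20), with a limma adjusted p of 0.655 and an unadjusted p of 0.00315. The groups did not overlap, but the share of all probes without overlap was not counted for this comparison. The adjusted value was read over all probes, of which 6 (0.0721%) were called in this comparison. On day 2 the difference was 0.43 ± 0.16 (0.11 to 0.76, limma adjusted p = 0.0982), and on day 1 it was 0.34 ± 0.17 (limma adjusted p = 0.382). The day 2 value passed without day 2 mouse 2, the lowest of its group, at 0.57 (limma adjusted p = 0.0186). Its direction did not hold under other scalings, where it was -0.05 after quantile normalization and -0.03 at equal spread. The day 1 value was -0.05 after quantile normalization and 0.08 at equal spread.

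Ms4a1 was likewise lowest on day 5, with more spread among untreated mice. Its log2 ratios were 2.05, 1.72, 1.01, 1.28 and 1.79 without treatment and 1.92, 1.57, 1.85 and 2.15 on day 1. They were 1.66, 2.05, 1.69, 1.86 and 1.94 on day 2 and 0.83, 1.32, 1.35, 1.00 and 1.42 on day 5. All day 5 mice were below all day 1 and day 2 mice, but untreated mice 3 and 4 lay within the day 5 range. The share of all probes with such a gap was counted only against day 2, and day 5 was not tested against day 1. The means were 1.57 ± 0.42 (SD, n = 5), 1.87 ± 0.24 (n = 4), 1.84 ± 0.17 (n = 5) and 1.19 ± 0.26 (n = 5), or 2.97, 3.66, 3.58 and 2.27 times the marrow level.

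Ms4a1 fell 1.58-fold from day 2 to day 5 (95% interval 1.22 to 2.03), by 0.66 ± 0.18 on the log2 scale (SE, 5 against 5 mice, limma adjusted p = 0.0329). This call was close to the threshold. It was lost without day 2 mouse 2, 4 or 5 or day 5 mouse 1 or 4, with limma adjusted p values of 0.0783, 0.0545, 0.0745, 0.0986 and 0.0769, and held in the other 14 of 19 such fits. The difference was -0.22 after quantile normalization (limma adjusted p = 0.739) and -0.34 at equal spread (limma adjusted p = 0.597). Over the 4 conditions the limma F-test for Ms4a1 gave an adjusted p of 0.057.

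Against untreated mice no Ms4a1 difference was called. The differences were 0.30 ± 0.19 on day 1 (limma adjusted p = 0.54), 0.27 ± 0.18 on day 2 (95% interval -0.10 to 0.64, limma adjusted p = 0.413) and -0.39 ± 0.18 on day 5 (-0.75 to -0.02, limma adjusted p = 0.923). The sign of the early differences depended on the scaling: day 1 was -0.09 after quantile normalization and 0.02 at equal spread, and day 2 was -0.20 and -0.23.

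**Figure D1:**
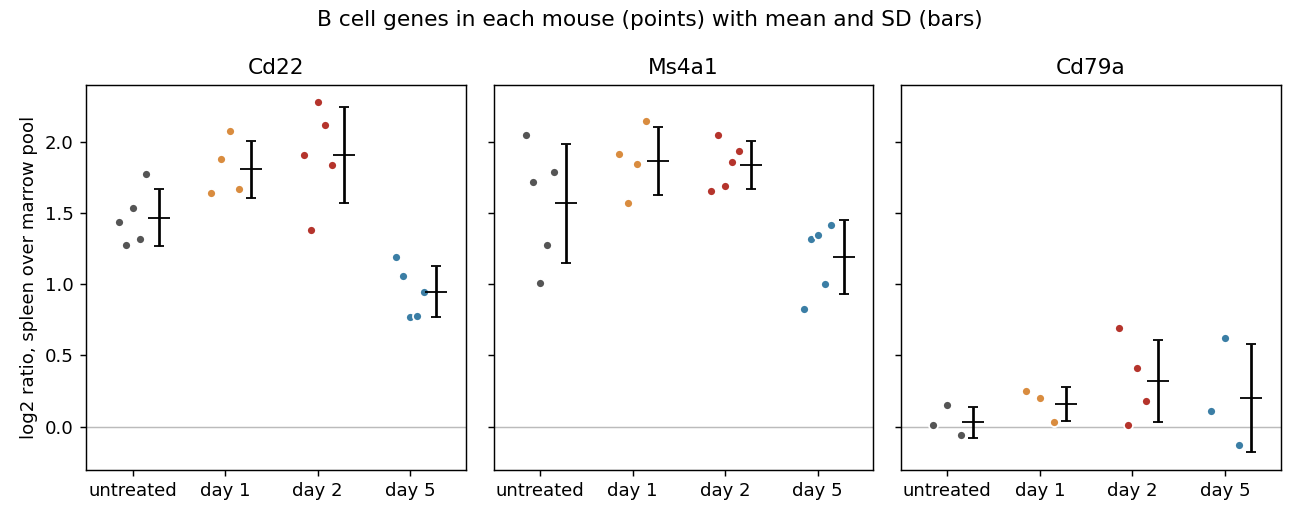
Log2 ratio of spleen over marrow pool (y axis) of the 3 tested member genes by group (x axis), with 1 point per mouse and the mean and SD of a group as a bar. The day 5 mice of Cd22, at 0.77 to 1.19, sit below all other mice of that gene, those of Ms4a1 (0.83 to 1.42) overlap the untreated mice, and Cd79a stays near 0. The share of all probes with day 5 wholly below another group was counted only against day 2 (2.57% of 8319).

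Cd79a, the first of the signalling chains of the receptor, was close to the marrow level throughout. Its log2 ratios were 0.01, 0.15 and -0.06 in untreated mice 2, 3 and 4, and 0.25, 0.20 and 0.03 in day 1 mice 1, 3 and 4. They were 0.69, 0.01, 0.41 and 0.18 in day 2 mice 1, 2, 4 and 5, and 0.11, 0.62 and -0.13 in day 5 mice 1, 4 and 5. All 4 groups overlapped, and single mice of day 2 and day 5 were as high as 0.69 and 0.62. The means were 0.03 ± 0.11 (SD, n = 3), 0.16 ± 0.12 (n = 3), 0.32 ± 0.29 (n = 4) and 0.20 ± 0.38 (n = 3).

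No Cd79a difference was called. Against untreated mice it was 0.13 ± 0.21 on day 1 (95% interval -0.32 to 0.58, limma adjusted p = 0.882), 0.29 ± 0.20 on day 2 (-0.13 to 0.71, limma adjusted p = 0.44) and 0.17 ± 0.21 on day 5 (-0.28 to 0.62, limma adjusted p = 0.974). Between day 5 and day 2 it was -0.12 ± 0.20 (-0.54 to 0.30, limma adjusted p = 0.81). The limma F-test for Cd79a gave an adjusted p of 0.823. The probe was the least repeatable of the 3: the arrays of a mouse differed by a median of 0.20 and at most 0.75 in the 9 mice with both, against medians of 0.07 for Cd22 and 0.12 for Ms4a1, and 22 of 38 arrays had a value.

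Cd79b, the partner chain, had a value on 5 of 38 arrays. Its log2 ratios were 2.10 in untreated mouse 4, 0.83 in day 1 mouse 1, and 1.02 and -0.18 in day 5 mice 4 and 5, with none on day 2. Both chains were measured in these 4 mice, and Cd79b had the higher ratio in 3 of them and the lower in day 5 mouse 5 (-0.18 against -0.13), but ratios of different probes to a reference do not order the genes by abundance. These 4 values show no course over the days.

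Across the whole array the counts set the scale for these results. The members were chosen with earlier results of these data known, so the shares given here are no test of the members. On day 1, 194 of 8319 probes were called against untreated (2.33%), on day 2 691 (8.31%), and between day 2 and day 1 5 (0.0601%), and no member was among them. On day 5 against untreated 4 rose and 2 fell, against 3 and 3 after quantile normalization. Between day 5 and day 2, 441 probes were called (5.30%), of which 316 rose and 125 fell (1.50%), and 2 of the 3 tested members were among those that fell. At equal spread the split was 125 and 19, and after quantile normalization 64 and 19, with no member among them. On day 2 against untreated the split was 275 rises and 416 falls, against 101 and 252 at equal spread. The F-test called 499 probes (6.00%), of which Cd22 was one. Every day 5 mouse lay below every day 2 mouse in 214 probes (2.57%), and Cd22 and Ms4a1 were among them. In the order of differences between day 5 and day 2, counted from the most negative, Cd22 was 45th and Ms4a1 169th of 8319.

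**Figure D2:**
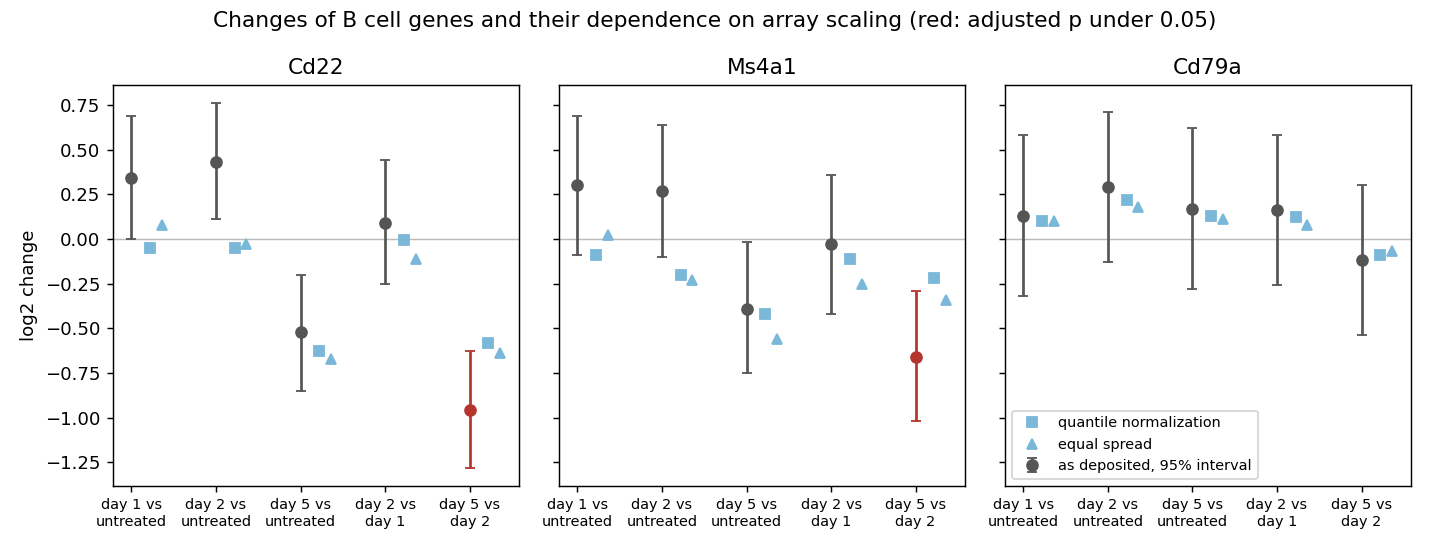
Log2 change of Cd22, Ms4a1 and Cd79a (y axis) in each comparison (x axis), as the fitted value with its 95% interval, red where the limma adjusted p is under 0.05; blue squares are the value after quantile normalization and triangles at equal spread. The only red values are the day 5 against day 2 changes of Cd22 (-0.96) and Ms4a1 (-0.66), and both alternative scalings lie nearer to 0 there.

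Whether members moved by different amounts was tested on the difference between their log2 ratios in each mouse. For the 3 pairs on 3 days against untreated, 9 tests, the lowest adjusted p of the exact permutation test was 0.45. On day 5 Cd22 minus Ms4a1 differed from untreated by -0.14 (exact permutation p = 0.595) and Cd22 minus Cd79a by -0.57 (exact permutation p = 0.1, the smallest that 3 against 3 mice allow). Between day 5 and day 2, 3 tests added after the values were seen, Cd22 minus Cd79a went from 1.49 to 0.77. That difference of -0.72 had the smallest exact permutation p that 4 against 3 mice allow, 0.0286, and an adjusted p of 0.0857. Cd22 minus Ms4a1 differed by -0.30 (exact permutation p = 0.302) and Ms4a1 minus Cd79a by -0.67 (exact permutation p = 0.171). A larger fall of one member than of another was therefore not shown.

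The receptor complex and its co-receptors were a list of 15 genes, of which 4 were measured: Cd22, Cd79a, Cd81 and Cd72. In limma none was called on any day against untreated, where Cd22 alone had an unadjusted p under 0.05, and 1 rose on day 2 without day 2 mouse 2 (Cd22, as above). Cd22 was also the 1 that fell between day 5 and day 2. Cd81, a tetraspanin of the cell surface, differed by 0.70 ± 0.36 on day 1 (limma adjusted p = 0.426) and by -0.13 ± 0.34 between day 5 and day 2. Cd72, an inhibitory receptor that also recruits SHP-1, differed by -0.06 ± 0.25 between day 5 and day 2.

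Of 34 genes that pass the signal on, 15 were measured, and their median difference was 0.15 on day 1, 0.13 on day 2 and -0.01 on day 5 against untreated, with all probes at 0.02, 0.01 and 0.01. Between day 5 and day 2, 1 of the 15 rose and 1 fell, with a median of -0.01 beside 0.01 over all probes, and 2 fell without day 2 mouse 2 or without day 5 mouse 5. Vav2, a guanine nucleotide exchange factor that is not confined to B cells, fell by 1.40 ± 0.28 on day 1 (limma adjusted p = 0.00863) and fell by 3.56 ± 0.27 on day 2 (limma adjusted p = 1.13e-07). The day 1 fall was lost at equal spread (-1.31, limma adjusted p = 0.0884) and in technical column 1 alone (-1.43, limma adjusted p = 0.0762). Vav2 then rose by 2.84 ± 0.27 from day 2 to day 5 (limma adjusted p = 1.21e-06), the step in which Cd22 fell. Nfatc1, a calcium-regulated transcription factor, rose by 0.65 ± 0.18 on day 2 (limma adjusted p = 0.0253) and fell by 0.81 ± 0.18 from day 2 to day 5 (limma adjusted p = 0.0086). The day 2 rise of Nfatc1 was lost without untreated mouse 4 (0.54, limma adjusted p = 0.0777) or 5 (0.62, 0.0536), or day 2 mouse 2 (0.62, 0.0546) or 3 (0.57, 0.0734). It was also lost at equal spread (0.55, limma adjusted p = 0.0934), in technical column 1 (0.66, 0.0523) and with the 3 mice whose arrays correlated least left out (0.51, 0.157). Both Nfatc1 calls were lost after quantile normalization (0.51 and -0.73).

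Other steps of the cascade moved less. Syk, the kinase recruited by the CD79 chains, differed by 0.54 ± 0.17 on day 1 (limma adjusted p = 0.0998), and Ptpn6, which encodes SHP-1, by 0.52 ± 0.17 (limma adjusted p = 0.132). Blnk, the adaptor that SYK phosphorylates, differed by -0.45 ± 0.14 between day 5 and day 2 (limma adjusted p = 0.0672). Blk, a Src family kinase of B cells, differed by 0.16 ± 0.14 in the same comparison.

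Among 25 B cell surface and survival receptors 11 were measured, and limma called none against untreated on any day, with 1 of 11 at an unadjusted p under 0.05 on each day. Ms4a1 was the 1 that fell between day 5 and day 2, and the list's median there was 0.07. Cd37, a tetraspanin of mature B cells, differed by 0.45 ± 0.15 on day 1 (limma adjusted p = 0.127) and by -0.20 ± 0.15 between day 5 and day 2. Fcer2a, which encodes the low-affinity IgE receptor CD23 of follicular B cells, differed by 0.21 ± 0.14 between day 5 and day 2, with no fall.

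Of 20 transcription factors of the B lineage 10 were measured and limma called none in any comparison, with 6 of 10 at an unadjusted p under 0.05 in at least 1. Without day 1 mouse 1, 1 fell between day 5 and day 2. In that comparison 7 of the 10 were below 0 and the median was -0.27, against 48.8% of all probes below 0. Mef2c, a factor needed for B cell proliferation after receptor stimulation, differed by -0.84 ± 0.26 (limma adjusted p = 0.0699), and Pou2af1, a coactivator of OCT factors in B cells, by -0.54 ± 0.23 (limma adjusted p = 0.21). Of 12 genes of antigen presentation by MHC class II, 5 were measured, limma called none (0 at an unadjusted p under 0.05), and the median between day 5 and day 2 was -0.04, which was 0.09 after quantile normalization and at equal spread.

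**Figure D3:**
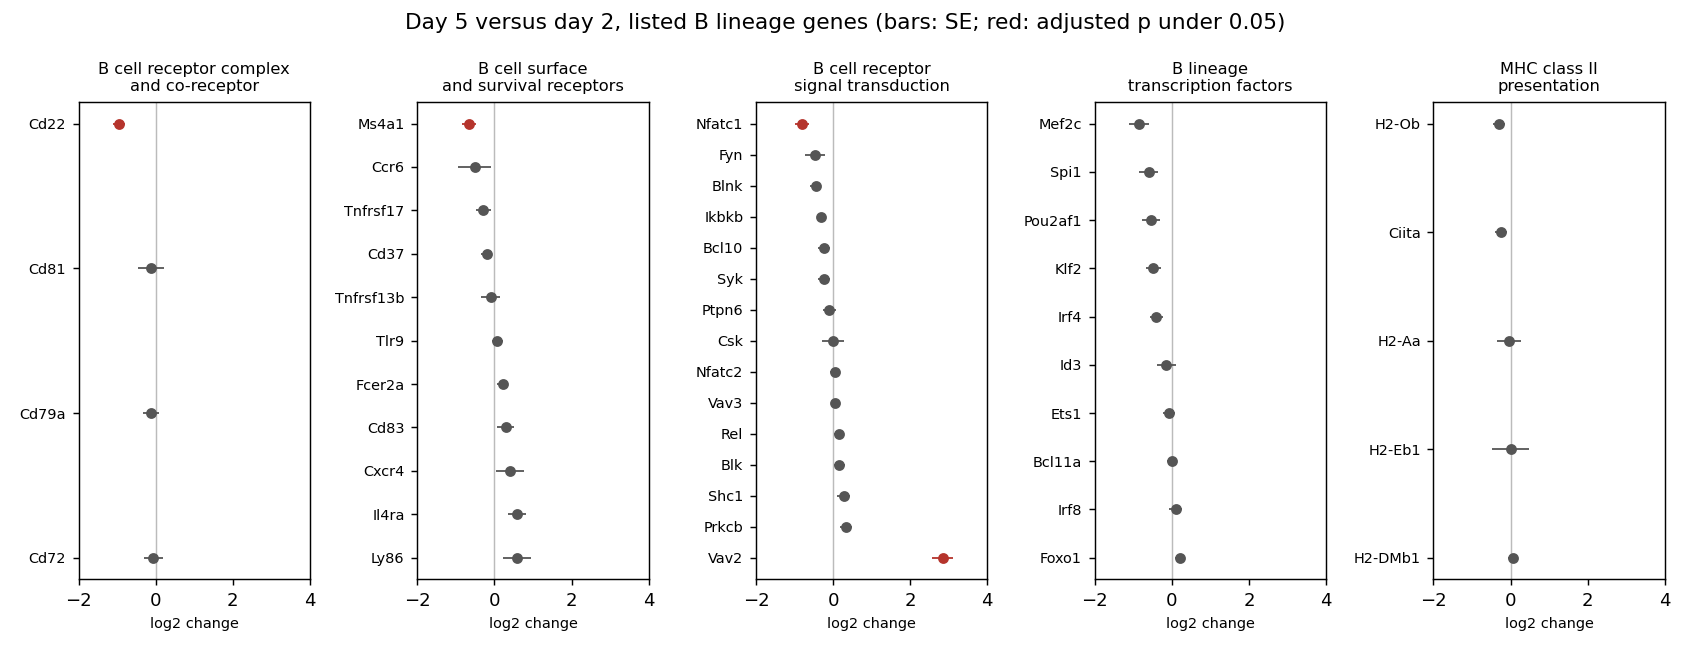
Log2 change from day 2 to day 5 (x axis) with its SE for each measured gene (y axis) of 5 lists of B cell genes. Red points have a limma adjusted p under 0.05: Cd22 (-0.96), Nfatc1 (-0.81) and Ms4a1 (-0.66) to the left of 0 and Vav2 (2.84) to the right; Mef2c (-0.84), Spi1 (-0.60) and Pou2af1 (-0.54) lie as far left as Ms4a1 or close to it and are not called.

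In the list of 21 mature B cell markers, 8 were measured and 2 fell between day 5 and day 2, both members described above. With them and Cd79a set aside, the 5 others had a median of -0.06 and 3 of them were below 0. In each mouse a mean was taken over the 6 markers measured in every mouse. These are Cd22 and Ms4a1 themselves with Fcer2a, Blk, Cd72 and Pou2af1. That mean was 0.16 to 0.63 in untreated mice and 0.48 to 0.63 on day 1. On day 2 it was 0.44 to 0.75, and the day 5 mice had 0.19 to 0.40. The day 5 range lay below those of day 1 and day 2 and within that of the untreated mice, but it is no separate measurement from the members. Between day 5 and day 2 the other 4 differed by 0.21 (Fcer2a), 0.16 (Blk), -0.06 (Cd72) and -0.54 (Pou2af1), and none was called. Of 13 B cell precursor markers 6 were measured and of 13 plasma cell markers 6, and limma called none in any comparison, with 1 and 4 at an unadjusted p under 0.05 in at least 1. Under other scalings 1 plasma cell marker fell on day 2 against untreated (quantile normalization and equal spread) and 1 on day 5 (quantile normalization). Mzb1, a chaperone of plasma cells and marginal zone B cells, differed by -1.28 ± 0.31 on day 5 against untreated (limma adjusted p = 0.348).

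Of 9 germinal centre markers 2 were measured. S1pr2, a receptor that keeps germinal centre B cells in the follicle, fell by 0.84 ± 0.18 on day 2 (limma adjusted p = 0.00441) and rose by 0.73 ± 0.18 from day 2 to day 5 (limma adjusted p = 0.0171). The rise had a limma adjusted p of 0.131 after quantile normalization, 0.0725 at equal spread and 0.0648 with array weights. S1pr2 thus rose in the step in which Cd22 fell.

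Other cell types moved with the same days. Of 10 measured mitosis genes of 16, 5 fell on day 1, 6 fell on day 2, and 6 rose from day 2 to day 5. The mean level per mouse of the 7 measured in every mouse was -0.81 to -0.21 without treatment and -2.20 to -1.68 on day 1. It was -2.31 to -1.66 in the mice of day 2, and by day 5 it was -1.02 to -0.25. Of 11 measured red cell precursor markers of 16, 6 rose from day 2 to day 5. The mean level per mouse of the 8 measured in every mouse was -2.51 to -1.41 on day 2 and -0.91 to 0.04 on day 5. At equal spread 3 of each list rose, and after quantile normalization 2 of each. Genes of dividing cells and of red cell precursors were thus higher on day 5 than on day 2, where Cd22 and Ms4a1 were lower, and their part in the change of the ratios was not tested.

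Of 13 macrophage markers 7 were measured. The mean level per mouse of the 4 measured in every mouse was 0.23 to 0.51 without treatment and 0.94 to 1.10 on day 1. The range was 0.71 to 1.53 in the mice of day 2, and by day 5 it was 0.41 to 0.86. Siglec1, a lectin of macrophages, rose by 0.77 ± 0.16 on day 1 (limma adjusted p = 0.0124) and by 1.24 ± 0.15 on day 2 (limma adjusted p = 2.22e-05). From day 2 to day 5 Siglec1 fell by 0.99 ± 0.15 (limma adjusted p = 0.000427); its day 1 and day 5 calls were lost after quantile normalization and at equal spread. Mrc1, the mannose receptor, differed by 1.08 ± 0.31 on day 2 (limma adjusted p = 0.0363), and 19 of 33 alternative fits kept the call. The call was lost without untreated mouse 1, 2, 3 or 4 or day 2 mouse 1, 2 or 5, and under both other scalings (0.87 in each). Either technical column alone, array weights, fits of only the 2 groups and leaving out the 3 mice whose arrays correlated least also lost it. C1qa, a chain of complement C1q, rose by 1.76 ± 0.44 from day 2 to day 5 (limma adjusted p = 0.0278). This call was lost without day 2 mouse 1, 3 or 4 or day 5 mouse 2 or 4. It was also lost with a replicate block and without the 3 mice whose arrays correlated least. C1qb, another chain of C1q, differed by -0.81 ± 0.54 in the same step (limma adjusted p = 0.462). Of the 7 macrophage markers 5 were below 0 in that step, with a median of -0.41. Of 20 markers of T cells, which are also lymphocytes of the spleen, 6 were measured. Limma called none in any comparison, and 3 had an unadjusted p under 0.05 in at least 1; without untreated mouse 5, day 2 mouse 3 or day 5 mouse 1, 1 fell on day 2. Between day 5 and day 2, 4 of the 6 were below 0 and 2 had an unadjusted limma p under 0.05, with a median difference of -0.07. That median was 0.06 after quantile normalization and 0.07 at equal spread. Lat (-0.91 ± 0.39, limma adjusted p = 0.209) and Cd8b1 (-0.63 ± 0.26, limma adjusted p = 0.196) differed by amounts near those of Cd22 and Ms4a1. Zap70, Cd4, Cd8a and Cd28 differed by -0.09, -0.05, 0.03 and 0.14. The mean per mouse of the 3 measured in every mouse (Cd8b1, Lat and Cd28) ranged from -0.05 to 1.03 on day 2. On day 5 it ranged from -0.21 to 0.71, so that the groups overlapped. Averaged over mice it was 0.65 on day 2 and 0.18 on day 5.

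**Figure D4:**
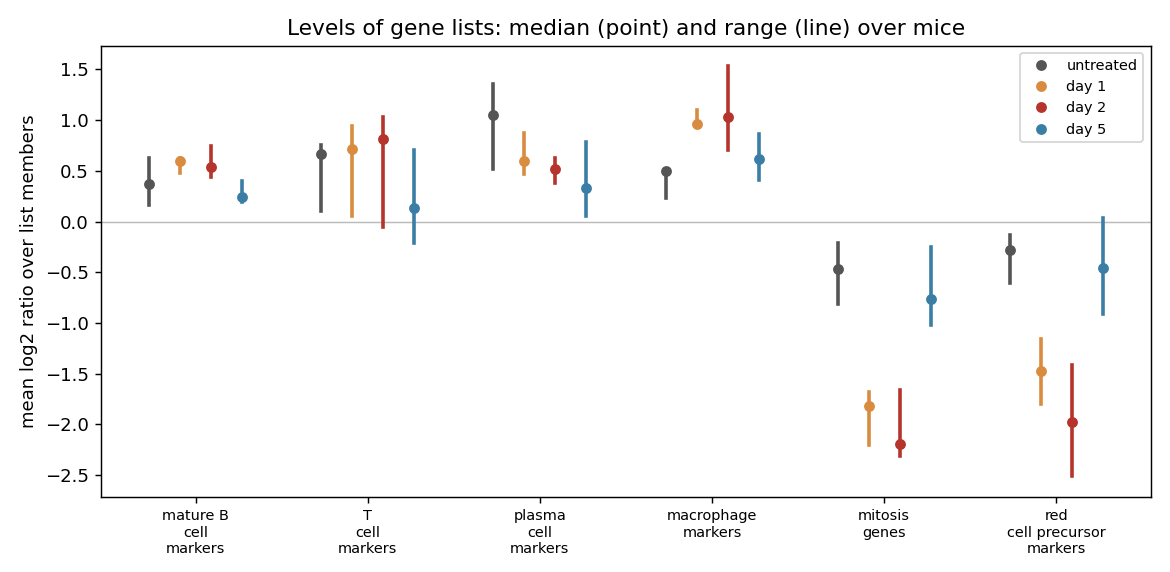
Mean log2 ratio of spleen over marrow pool (y axis) over the genes of 6 marker lists by group (x axis), from genes measured in every mouse. Points are the median and lines the range over the mice. The mean over mature B cell markers, which include Cd22 and Ms4a1, is lower on day 5 (0.19 to 0.40) than on day 2 (0.44 to 0.75). Of its other genes, Fcer2a (0.21) and Blk (0.16) do not fall in that step, while Cd72 (-0.06) and Pou2af1 (-0.54) are below 0. Mitosis and red cell precursor genes are higher on day 5. T cell markers overlap between these days, with group means of 0.65 on day 2 and 0.18 on day 5.

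The genes most like Cd22 and Ms4a1 over the 19 mice were found by Pearson correlation among 5219 genes measured in at least 16 mice. The values describe these mice, which share the reference and the 4 conditions. For Cd22 they were Ppcs, of coenzyme A synthesis (0.819), Slamf6, a receptor of lymphocytes (0.806), Tgfbr2, a receptor chain for TGF-beta (0.771), Pdia3, a chaperone of the endoplasmic reticulum (0.759), and H2-Q8, a class I gene (0.756). Spearman values for these 5 were 0.804, 0.793, 0.777, 0.788 and 0.747. For Ms4a1 they were Sqstm1, an autophagy receptor (0.812), Naaa, a lysosomal amidase (0.750), Smarca2, a chromatin remodelling ATPase (0.742), Exo5, an exonuclease (0.741), and Cdk2ap2 (0.740), with Spearman values of 0.784, 0.688, 0.719, 0.725 and 0.705.

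Cd22 and Ms4a1 correlated with each other at 0.545 (Spearman 0.486), which placed Ms4a1 169th in the order for Cd22 and Cd22 157th in the order for Ms4a1. The genes nearest to each were thus not the other member. H2-Q8 belongs to a family of close copies, and a probe may not tell them apart. These genes were picked for following a member, so their differences between day 5 and day 2 follow from that choice and are given without a test. They were -1.16 ± 0.25 for Ppcs, -0.56 ± 0.15 for Slamf6, -0.53 ± 0.14 for Tgfbr2, -0.42 ± 0.11 for Pdia3 and -0.70 ± 0.14 for H2-Q8, beside -0.96 ± 0.16 for Cd22. For Sqstm1, Naaa, Smarca2, Exo5 and Cdk2ap2 they were -0.89 ± 0.19, -0.40 ± 0.21, -0.84 ± 0.22, -0.35 ± 0.18 and -0.26 ± 0.14, beside -0.66 ± 0.18 for Ms4a1.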

How the data were processed

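The deposited values are log2 ratios of 2-colour arrays, spleen (Cy5) over a marrow pool (Cy3) per the labels. Base 2 was assumed for the logarithm, which no source used here states. For background correction, spot filter, normalization and software, the sources used here give no method. Array medians lie between -0.0212 and 0.0132, and values are bounded at 6.0 in size, which 7 reach. The direction was read from the labelled dyes. No dye swap, slide or date is given, so no batch was tested, and the dye cancels between groups. The design text names 5 mice per condition; 4 are used for day 1.

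Probes were named through the platform annotation (10032 with 1 gene, 170 with several, 3241 with none), with 10028 symbols updated from a RefSeq table and 4 kept as given. Arrays of a mouse were averaged, and a probe needed values from 3 or more mice in each group. The means of all 4 groups were estimated by lmFit and eBayes of limma 3.58.1 (R 4.3.3; prior degrees of freedom 5.52), with two-sided p adjusted by Benjamini-Hochberg over 8319 probes and a threshold of 0.05. Over these probes the median standard error of the difference between day 1 and untreated was 0.183. The number of mice limits the precision. Intervals are at 95%. Differences between members used two-sided exact permutation tests. Named genes were the members and, of each list, called members and up to 4 with the smallest p; for likeness, the 5 highest correlations. Other listed genes are named because they passed between days or for contrast. For equal spread each array was centred at its median. Its values were then divided by the ratio of its median absolute deviation to the geometric mean of those of all arrays. The arrays of a mouse were averaged afterwards. Alternatives were other scalings, single arrays, both arrays with the mouse as a random effect, other filters, a variance trend, array weights, a replicate block, fits of only 2 groups, and each mouse left out. The fit was tested on simulated data. Figures used matplotlib 3.10.9 in Python 3.11.15.

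The members and the gene lists were chosen with earlier results of these data known. Same-numbered mice in different groups were not paired: over 27 pairs the mean correlation was -0.00472 (range -0.249 to 0.325, 4 above 0.1).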

Additional observations from a re-analysis of the deposited data

Results flagged for a closer look

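The difference between day 5 and day 2 stood out for both members measured in every mouse. Cd22 changed by -0.96 on the log2 scale between these time points and Ms4a1 by -0.66, each past the threshold in limma. In both, every day 5 mouse was below every day 2 mouse, as in 2.57% of the 8319 probes. In 9 groups of 4 or 5 mice tested for a value far from the rest (the 3 tested genes), none was found; chance gives such a value in about 5% of groups.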

How the results depend on the processing

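The day 5 against day 2 change of Cd22 was -0.58 after quantile normalization and -0.64 at equal spread, neither past the threshold, and -1.09 to -0.86 with each mouse left out. That of Ms4a1 was -0.22 and -0.34 under those scalings, -0.60 in technical column 2 alone (limma adjusted p = 0.0784), -0.66 with a variance trend (0.0955), -0.66 with a replicate block (0.0534), and -0.72 to -0.57 with each mouse left out.

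Against untreated, quantile normalization gave -0.05 for Cd22 and -0.09 for Ms4a1 on day 1, and -0.05 and -0.20 on day 2; equal spread gave -0.03 and -0.23 on day 2. Cd22 on day 2 passed with the mouse as a random effect (0.43) and with array weights (0.49), and was 0.34 to 0.57 with each mouse left out. Day 2 against day 1, Cd22 was -0.008 after quantile normalization, -0.11 at equal spread and -0.0017 to 0.22 with each mouse left out; Ms4a1 was -0.13 to 0.06. Cd79a on day 5 was -0.04 to 0.33 against untreated and -0.33 to 0.04 against day 2 with each mouse left out, and 0.04 against day 2 without the 3 mice of lowest technical correlation. Cd79a did not pass the filter in the fits of a single technical column or of probes with values on all arrays, so it has no test there. The cause of these shifts was not tested.

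Differences between members on day 2 against untreated turned sign for Cd22 minus Cd79a (-0.16 at equal spread, -0.32 after quantile normalization, -0.11 in column 1) and Ms4a1 minus Cd79a (-0.04, -0.21 and -0.02). On day 1 Cd22 minus Cd79a was -0.17 after quantile normalization. With each mouse left out, Cd22 minus Ms4a1 was -0.08 to 0.20 on day 1 and -0.29 to 0.02 on day 5.

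Counts of called probes moved more. On day 1 they were 117 at equal spread, 452 with the mouse random, 350 with array weights, 113 without the 3 mice, and 99 to 219 with each mouse left out (99 without day 1 mouse 2, 109 without day 1 mouse 4). On day 2 they were 338 after quantile normalization, 353 at equal spread, 449 with only the 2 groups and 409 without the 3 mice. On day 5 against untreated they were 24 with the mouse random, 11 without the filter, 1 with only the 2 groups and 1 without the 3 mice, and 0 to 5 with each mouse left out. They were 0 at equal spread, in column 2, with a variance trend and with the replicate block, where limma had 522, 419, 422 and 414 probes at an unadjusted p under 0.05. Day 2 against day 1 they were 27 with the mouse random, 20 with array weights, 8 without the filter, 3 with the replicate block, 1 with only the 2 groups and 3 to 9 with each mouse left out, and 0 after quantile normalization and at equal spread (266 and 313 in limma at an unadjusted p under 0.05). Day 5 against day 2 they were 83 after quantile normalization, 144 at equal spread and 730 with the mouse random. The difference tests between members for day 5 against day 2 were added after seeing the data.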
